A study of Mus musculus with 6 samples.

Results

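The BCL2 family genes that decide between survival and death of a cell were examined in T follicular helper (Tfh) cells with and without Bob1. The 10 genes are *Bcl2*, *Bcl2l1*, *Mcl1*, *Bax*, *Bak1*, *Bcl2l11*, *Bbc3*, *Bid*, *Bad* and *Pmaip1*, chosen by name out of 23527 genes with a value in all 6 libraries, and each of the 10 had a row in every library. They were chosen with their Bob1KO and WT values known, so that the comparison of both groups is a description of them, and counts of genes past a threshold are given beside the share over all genes and carry no weight as a test. RNA was sequenced from splenic Tfh cells of 3 WT and 3 Bob1KO libraries. Mice of both groups were Bob1 fl/fl and carried FoxP3 GFP/DTR, an allele that marks FoxP3+ cells with GFP and the diphtheria toxin receptor. The WT mice were CD4 +/+ and the Bob1KO mice CD4 Cre/+, so that the floxed allele is shared and Cre is not. Cre is driven by the *Cd4* promoter, which is active from the thymus on in the whole CD4 lineage and in cells that pass through a CD4+ stage, so that the deletion is not limited to Tfh cells. The mice were 6 to 12 weeks old, were immunized intraperitoneally with 100 µg of NP-CGG, a hapten on a carrier protein, in complete Freund's adjuvant, and gave their spleens on day 7. The gate was GFP- B220- CD3+ CD4+ CXCR5+ PD-1+, each library came from an experiment with 10 to 12 mice per group, and nothing in the labels says which mice were pooled.

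Proteins of the BCL2 family meet at the outer membrane of mitochondria. Anti-apoptotic members, among them Bcl-2, Bcl-xL and Mcl-1, hold the effectors Bax and Bak in check, and BH3-only members either occupy the anti-apoptotic proteins or activate the effectors directly. Once Bax or Bak forms pores, cytochrome c leaves the mitochondria and caspases are activated. In T cells, Bcl-2 and Mcl-1 sustain resting and activated cells, and Bim, the product of *Bcl2l11*, is known for the removal of activated T cells when an immune response ends. Much of this regulation acts on proteins, by binding, phosphorylation, cleavage and degradation, and is not seen in RNA.

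Promoter sequences were taken from RefSeq on GRCm38.p6 as windows from 250 bases before to 50 bases after each start. Of the 10 genes 9 had an entry, with 15 windows, and *Pmaip1* had none. The octamer ATGCAAAT, the element to which Oct factors bind and recruit Bob1, was looked for on both strands because Bob1 is the gene deleted here, and it was in 0 of the 15 windows, beside 1.74% of all 32851 windows. The GC box GGGCGG, also searched on both strands, was in 10 of the 15 windows, beside 35.7% of all windows, and these 10 windows belong to 7 of the 9 genes. TATAAA was in 0 of the 15 windows and in 13.6% of all. The 250 bases before the start are printed for the 4 genes whose 3 Bob1KO libraries all lay on one side of the 3 WT libraries, with each GC box (GGGCGG or CCGCCC, overlapping boxes counted singly) in capitals, each sequence running 5′ to 3′ on the strand of the gene.
Bcl2 promoter (GRCm38.p6, chr1:106714291-106714540, minus strand): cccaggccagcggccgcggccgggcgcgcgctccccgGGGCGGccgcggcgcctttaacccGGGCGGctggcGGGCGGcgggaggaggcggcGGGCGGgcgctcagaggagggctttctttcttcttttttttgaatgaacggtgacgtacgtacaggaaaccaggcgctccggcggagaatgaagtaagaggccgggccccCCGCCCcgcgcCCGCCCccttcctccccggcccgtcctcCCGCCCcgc
Bcl2l11 promoter (GRCm38.p6, chr2:128125788-128126037, plus strand): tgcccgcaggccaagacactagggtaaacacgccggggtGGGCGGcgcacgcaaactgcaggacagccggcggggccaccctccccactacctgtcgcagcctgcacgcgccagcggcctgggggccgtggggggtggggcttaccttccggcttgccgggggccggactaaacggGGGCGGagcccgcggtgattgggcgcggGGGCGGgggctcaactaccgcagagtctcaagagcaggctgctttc
Bbc3 promoter (GRCm38.p6, chr7:16309333-16309582, plus strand): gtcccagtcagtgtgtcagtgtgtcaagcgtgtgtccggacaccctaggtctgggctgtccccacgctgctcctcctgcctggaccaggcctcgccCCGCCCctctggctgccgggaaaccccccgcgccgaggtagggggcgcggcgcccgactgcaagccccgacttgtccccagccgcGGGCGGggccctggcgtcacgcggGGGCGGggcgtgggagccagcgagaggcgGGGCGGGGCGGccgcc
Bid promoter (GRCm38.p6, chr6:120916825-120917074, minus strand): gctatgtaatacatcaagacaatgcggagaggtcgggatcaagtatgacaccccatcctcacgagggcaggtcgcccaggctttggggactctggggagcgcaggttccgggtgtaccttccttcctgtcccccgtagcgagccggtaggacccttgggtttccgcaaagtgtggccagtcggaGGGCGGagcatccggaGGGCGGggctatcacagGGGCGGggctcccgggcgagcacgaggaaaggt
The stretches hold 7 GC boxes for *Bcl2*, 3 for *Bcl2l11*, 5 for *Bbc3* and 3 for *Bid*, at a GC content of 74.8%, 72.0%, 76.4% and 63.6%. The median over all windows was 52.7%. The starts of the rows that the authors' assembly placed at these genes lay at the RefSeq start (a distance of 0 bases for *Bcl2*, *Bcl2l11* and *Bbc3* and 4 bases for *Bid*, as the median over the libraries). The letters match no measurement of binding and are shown as the sequence context of the values that follow.

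The targeted gene was read first. *Pou2af1*, which encodes Bob1 and is covered whole by the floxed allele, had 46.1, 32.5 and 34.4 FPKM (fragments per kilobase of transcript, scaled to the mapped fragments of the library) in the WT libraries and 1.16, 0.237 and 0.317 FPKM in the Bob1KO libraries. Its log2 fold change came to -4.65, with a standard error of 0.256, on the scale of log2(FPKM + 1) (limma, adjusted P = 0.00316). The approximate depth was 18300000 to 26100000 fragments per library. Markers of Tfh cells summed to 2352 to 3340 FPKM in WT and 2484 to 3255 FPKM in Bob1KO libraries, with 0 of 10 at 0, led by *Cd3e* and *Pdcd1*. Markers of myeloid cells, 9 of 10 with a row and 0 at 0, summed to 439 to 753 FPKM in WT and to 3769, 74.6 and 1020 FPKM in Bob1KO replicates 1, 2 and 3, mostly from *S100a8* (2027, 35.5 and 567 FPKM) and *S100a9*. Markers of NK and CD8 T cells summed to 239 to 368 FPKM in WT and to 106 to 215 FPKM in Bob1KO, most of it *Ccl5* and *Nkg7*. Without *Ccl5*, a chemokine of CD4 T cells too, the sums of 93.2, 119 and 140 FPKM in WT and 107, 129 and 82.8 FPKM in Bob1KO overlapped. Of the other genes in this list, *Cd8a* and *Ncr1* reached at most 0.139 and 0.290 FPKM, and *Klrd1* and *Gzmb* at most 1.23 and 2.17 FPKM. *Cd8b1* had 3.44 to 5.995 FPKM and *Gzma* 2.34 to 7.44 FPKM over all libraries. Markers of B cells and plasma cells summed to 8.09 to 12.2 FPKM in WT and 4.80 to 25.3 FPKM in Bob1KO, with up to 3 of 8 at 0, led by *Jchain* and *Cd79b*. The Y-linked gene *Ddx3y* had 29.9 and 27.9 FPKM in replicate 2 of WT and of Bob1KO and was listed at 0 in the other 4 libraries. *Xist*, expressed in female cells, had 6.45 to 12.7 FPKM in those 4 libraries and at most 0.00966 FPKM in replicate 2. By these genes replicate 2 was male and replicates 1 and 3 were female in both groups, while the labels give no sex.

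Of the 3 anti-apoptotic genes among the 10, *Mcl1* had the highest level, and its product is short-lived and restrains Bim and Bak. *Mcl1* (chromosome 3, 95656944 to 95663179) had 131, 126 and 115 FPKM in WT and 130, 135 and 126 FPKM in Bob1KO. The groups overlapped, with means of 124 ± 7.89 and 130 ± 4.40 FPKM (SD, n = 3), and the log2 fold change was 0.07 (standard error 0.10). In bulk samples, fewer expressing cells and less RNA per cell cannot be told apart, which holds for each value given here.

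*Bcl2*, the founding member of the family, lay in 3 of 3 Bob1KO libraries above 3 of 3 WT libraries. *Bcl2* (chromosome 1, 106538176 to 106714290) had 45.4, 47.2 and 51.2 FPKM in WT and 58.3, 73.0 and 74.1 FPKM in Bob1KO. The means were 47.9 ± 2.96 and 68.5 ± 8.85 FPKM (SD, n = 3), their ratio was 1.43 and the log2 fold change was 0.50 (standard error 0.128). The lowest Bob1KO library, replicate 1, was also the one richest in myeloid transcripts, and without it the log2 fold change was 0.61. The bounds that Cufflinks gave for the highest WT library, 48.7 to 53.7 FPKM, did not reach those of the lowest Bob1KO library, 55.6 to 60.9 FPKM. Such bounds, here and below, describe the estimate within a library and not the spread between libraries. Inside the span of *Bcl2* the assembly also listed separate rows that add up to 3.15, 18.7 and 0 FPKM in WT and 18.4, 8.29 and 0 FPKM in Bob1KO, and the library kit does not mark the strand, so transcripts of another gene in this span cannot be told apart from *Bcl2*. With these rows added the groups still did not overlap, at 48.6, 65.9 and 51.2 FPKM in WT and 76.6, 81.3 and 74.1 FPKM in Bob1KO.

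*Bcl2l1*, which encodes Bcl-xL and its short pro-apoptotic isoform, was not separated between the groups. *Bcl2l1* (chromosome 2, 152758732 to 152833803) had 13.4, 19.8 and 19.99 FPKM in WT and 13.1, 17.3 and 21.3 FPKM in Bob1KO. Replicate 1 was lowest in both groups. The log2 fold change was -0.04 (standard error 0.223), and it lay between -0.22 and 0.13 when each library in turn was left out. Rows listed apart inside its span, which held 4.24, 3.56 and 5.18 FPKM in Bob1KO and were found in 0 of 3 WT libraries, brought it to 0.27 when added. The rows give 1 value per gene, so the isoforms were not told apart.

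Of the effectors, *Bax* was abundant and *Bak1* scarce. *Bax* (chromosome 7, 45461695 to 45466903) had 224, 213 and 260 FPKM in WT and 202, 223 and 200 FPKM in Bob1KO. These groups overlapped through Bob1KO replicate 2, and the log2 fold change was -0.15 (standard error 0.118). *Bak1* (chromosome 17, 27019812 to 27028627) had 0.592, 1.11 and 0.614 FPKM in WT and 1.59, 1.44 and 0.384 FPKM in Bob1KO. Its mean over the 6 libraries, 0.956 FPKM, was under the minimum of 1 FPKM that a gene needed to enter the fit, and with no minimum its log2 fold change was 0.23 (standard error 0.276). Bob1KO held both the highest and the lowest *Bak1* library, with Cufflinks bounds of 1.19 to 2.003 FPKM in replicate 1 and 0.179 to 0.589 FPKM in replicate 3.

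Among the BH3-only genes, *Bbc3* and *Bcl2l11* lay higher in all Bob1KO libraries, and *Bid* lay lower. *Bbc3*, which encodes Puma, a target of p53 that binds every anti-apoptotic member, is on chromosome 7 from 16308398 to 16318334. It had 15.4, 13.8 and 13.3 FPKM in WT and 22.0, 22.2 and 18.7 FPKM in Bob1KO. The groups did not overlap, with means of 14.2 ± 1.12 and 21.0 ± 1.94 FPKM (SD, n = 3). Their ratio was 1.48 and the log2 fold change was 0.53 (standard error 0.127). Without Bob1KO replicate 1 the log2 fold change of *Bbc3* was 0.50.

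*Bcl2l11* (chromosome 2, 128126038 to 128162547), the gene of Bim, was the lowest BH3-only gene among the 10. It had 2.08, 3.49 and 2.27 FPKM in WT and 3.52, 4.13 and 3.70 FPKM in Bob1KO, and the log2 fold change was 0.42 (standard error 0.203). WT replicate 2 lay just under Bob1KO replicate 1, and their Cufflinks bounds, 3.11 to 3.87 and 3.15 to 3.89 FPKM, overlapped almost entirely. The assembly listed further rows inside the span of *Bcl2l11* in every library. When these were added, the values became 4.35, 7.33 and 6.47 FPKM in WT and 7.19, 8.12 and 5.59 FPKM in Bob1KO, the groups overlapped, and the log2 fold change was 0.19.

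*Bid*, whose product is cleaved by caspase-8 and carries death receptor signals to mitochondria, lay below WT in each Bob1KO library. *Bid* (chromosome 6, 120893119 to 120917062) had 28.1, 24.9 and 25.5 FPKM in WT and 20.3, 20.9 and 19.3 FPKM in Bob1KO. The spread within each group was small, at means of 26.2 ± 1.71 and 20.1 ± 0.792 FPKM (SD, n = 3). Their ratio was 0.769 and the log2 fold change was -0.36 (standard error 0.109). Leaving out each library in turn kept the log2 fold change of *Bid* between -0.39 and -0.31.

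*Bad* and *Pmaip1* varied between libraries rather than between groups. *Bad* (chromosome 19, 6941861 to 6951905), whose product is held inactive by phosphorylation in cells that receive growth signals, had 20.4, 17.8 and 36.0 FPKM in WT and 19.4, 16.3 and 27.3 FPKM in Bob1KO. Replicate 3 was highest in both groups, and the log2 fold change of -0.19 (standard error 0.290) turned to 0.10 without WT replicate 3. *Pmaip1* (chromosome 18, 66458604 to 66465558), which encodes Noxa, the BH3-only protein that neutralizes Mcl-1, had 43.4, 24.5 and 23.3 FPKM in WT and 26.5, 44.5 and 24.8 FPKM in Bob1KO. In each group 1 library stood above the other two, replicate 1 in WT and replicate 2 in Bob1KO. The log2 fold change of *Pmaip1* was 0.08 (standard error 0.301) and ran from -0.18 to 0.35 when each library was left out in turn.

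**Figure D1:**
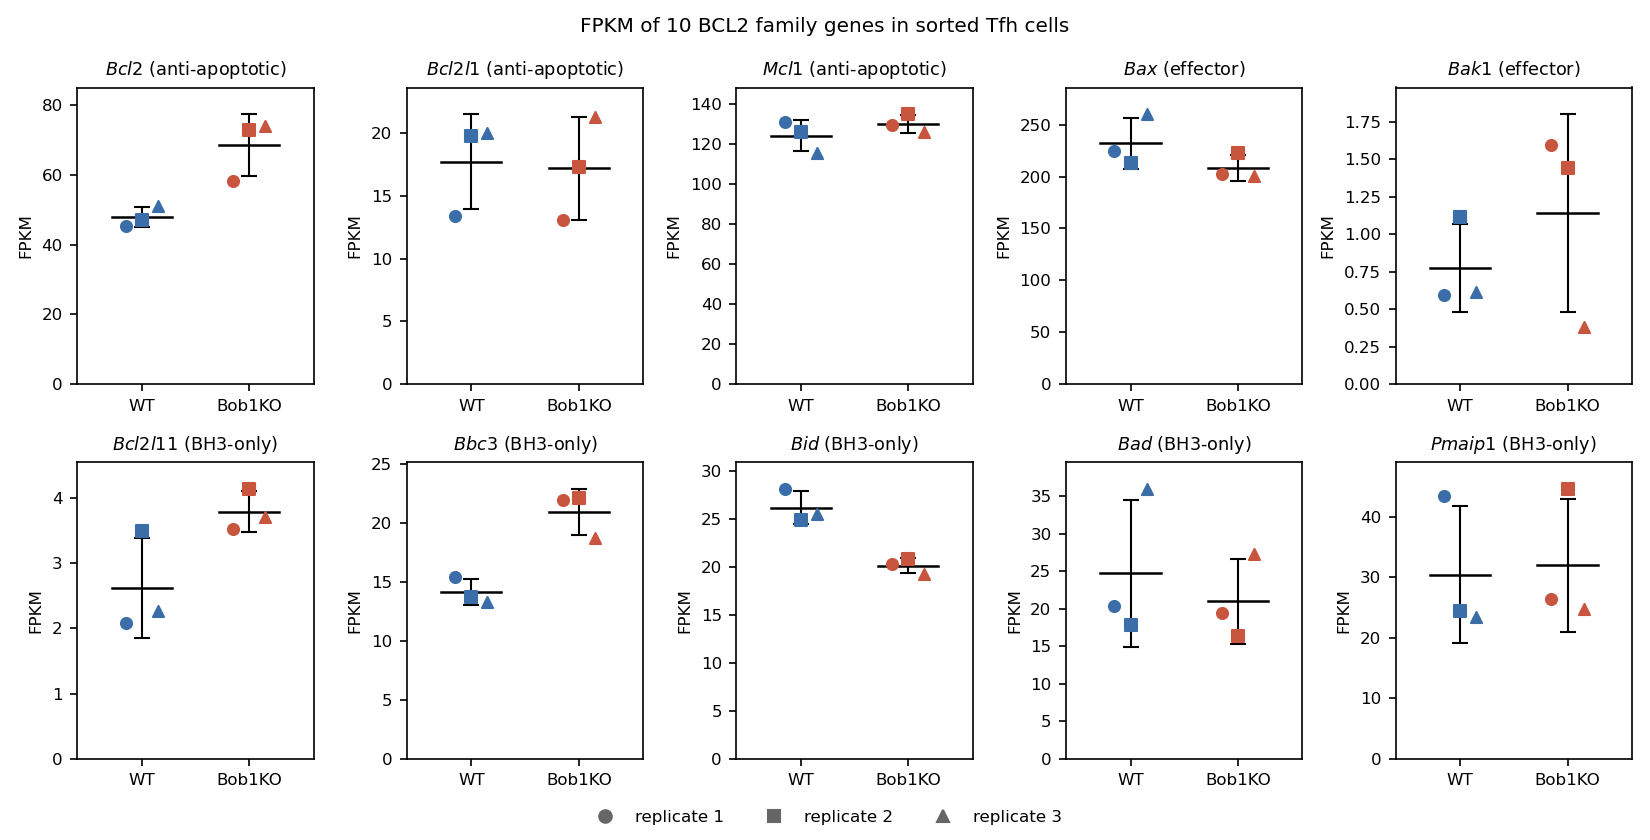
FPKM of each gene (y axis, linear from 0) in the 3 WT and 3 Bob1KO libraries (x axis). Points are libraries, with the shape giving the replicate number, and lines and bars are the mean and SD. *Bcl2*, *Bbc3* and *Bcl2l11* lie higher in all Bob1KO libraries and *Bid* lies lower, whereas the groups overlap for the other 6 genes.

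Of the 10 genes, 9 entered the fit of limma over 10119 genes, and 0 of these 9 passed an adjusted P of 0.05, beside 0.0198% of all genes tested (0.00988% in each direction). At an unadjusted P under 0.05 limma gave 2 of 9 higher in Bob1KO, *Bcl2* and *Bbc3*, beside 3.17% of all genes, and 1 lower, *Bid*, beside 2.2% (5.38% in either direction). The groups did not overlap for 3 higher and 1 lower of the 9, beside 5.88% and 4.86% of all genes (10.7% in either direction). Log2 fold changes were above 0 for 5 and below 0 for 4 of the 9, and their median was 0.07 beside -0.00326 over all genes. The 10 genes were picked with this contrast known, and these counts therefore describe the choice as much as the cells. Replicate 2 of both groups was the pair with *Ddx3y*, and without this pair the log2 fold changes were 0.44 for *Bcl2*, 0.47 for *Bbc3*, 0.54 for *Bcl2l11* and -0.42 for *Bid*. The summed markers of NK and CD8 T cells were lower in all Bob1KO libraries through *Ccl5*, without which the sums overlapped, and their part in these values was not tested. The part of myeloid transcripts was not tested beyond leaving out Bob1KO replicate 1, without which *Bcl2l11* had 0.46 and *Bid* -0.37.

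**Figure D2:**
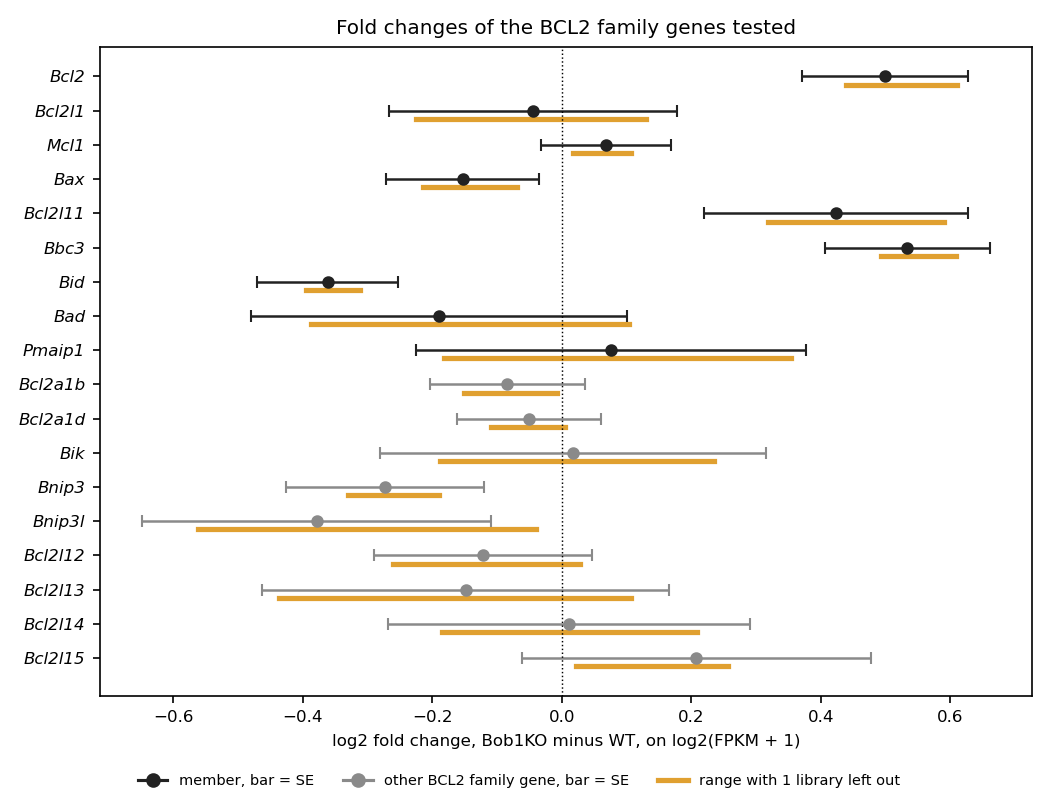
Log2 fold change on log2(FPKM + 1), Bob1KO minus WT (x axis), of the 9 genes tested (black) and of 9 other BCL2 family genes tested (grey). Bars on the points are the standard error, and orange bars are the range when each of the 6 libraries is left out in turn. The orange bars of *Bcl2*, *Bcl2l11*, *Bbc3*, *Bid* and *Bnip3* stay on one side of 0, which is fixed where the groups do not overlap. Those of *Mcl1*, *Bax*, *Bcl2a1b*, *Bnip3l* and *Bcl2l15* stay on one side too. The bar of *Bcl2l15* lacks the fit without WT replicate 1, where its mean was under the minimum of 1 FPKM. The bars of *Bcl2l1*, *Bad*, *Pmaip1* and the remaining grey genes cross 0.

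The order of the 10 genes by level did not use the contrast between the groups. By mean FPKM over the 6 libraries, *Bax* came first at 220 ± 21.8 (SD, n = 6), followed by *Mcl1* at 127 ± 6.58 and *Bcl2* at 58.2 ± 12.7. *Pmaip1* at 31.2 ± 9.98, *Bid* at 23.2 ± 3.52, *Bad* at 22.9 ± 7.45, *Bbc3* at 17.6 ± 3.98 and *Bcl2l1* at 17.5 ± 3.54 FPKM formed a middle group. *Bcl2l11* at 3.20 ± 0.828 and *Bak1* at 0.956 ± 0.499 FPKM were last. *Bax*, *Mcl1* and *Bcl2* held ranks 1, 2 and 3, and *Bcl2l11* and *Bak1* ranks 9 and 10, in 6 of 6 libraries. The genes between them changed places, with *Bad* between rank 4 and rank 8 and *Bbc3* between rank 5 and rank 8.

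Neighbours in this order were compared within libraries, as 9 pairs. In 5 pairs the first gene was higher in 6 of 6 libraries, namely *Bax* over *Mcl1*, *Mcl1* over *Bcl2*, *Bcl2* over *Pmaip1*, *Bcl2l1* over *Bcl2l11* and *Bcl2l11* over *Bak1*. With the rows inside each span added, *Bcl2* was no longer above *Pmaip1* in WT replicate 1. The mean log2 ratio, on log2(FPKM + 1), was 0.79 for *Bax* over *Mcl1* (SD 0.192) and 1.14 for *Mcl1* over *Bcl2* (SD 0.290), and in each of the 5 pairs it was larger than its SD over the libraries. In the other 4 pairs, *Pmaip1* with *Bid*, *Bid* with *Bad*, *Bad* with *Bbc3* and *Bbc3* with *Bcl2l1*, the first gene was higher in 3 or 4 of 6 libraries and the mean log2 ratio was smaller than its SD. *Bbc3* and *Bcl2l1* had the smallest of these, 0.00228, with an SD of 0.498. An exact sign-flip permutation test, two-sided, called 0 of the 9 pairs after adjustment, and 5 of 9 at an unadjusted P under 0.05. As the order was ranked on the same 6 libraries and same-numbered libraries are not independent, these P values support no order.

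**Figure D3:**
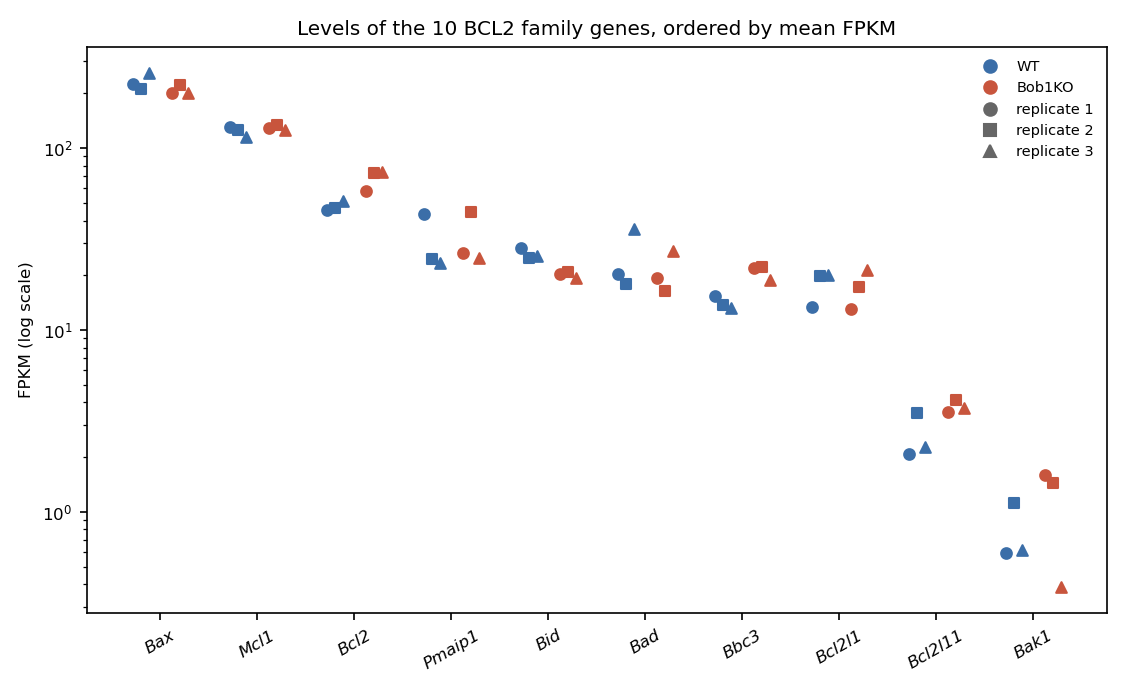
FPKM of the 10 genes (y axis, log scale), ordered by their mean over the 6 libraries (x axis). Each point is 1 library, coloured by group and shaped by replicate number. *Bax* and *Mcl1* stand apart at the top and *Bcl2l11* and *Bak1* at the bottom. The lowest point of *Bcl2* comes close to the highest of *Pmaip1*, and the points of the 5 genes from *Pmaip1* to *Bcl2l1* overlap.

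Sums over the roles among the 10 genes, and ratios within a library, are built from the same values and are given with no test. The 3 anti-apoptotic genes summed to 190 ± 3.12 FPKM in WT and 216 ± 12.96 FPKM in Bob1KO (SD, n = 3). The share of *Bcl2* in this sum was 23.9%, 24.4% and 27.4% in WT and 29.0%, 32.4% and 33.5% in Bob1KO, and that of *Mcl1* was 65.4 ± 3.58% and 60.4 ± 3.83%. *Mcl1* was the most abundant transcript of the 3 in 6 of 6 libraries. These sums leave out the A1 genes *Bcl2a1b* and *Bcl2a1d*, which are anti-apoptotic too and held 230 to 277 FPKM per library. With both added, the anti-apoptotic sum was 467, 437 and 431 FPKM in WT and 465, 455 and 453 FPKM in Bob1KO, and the groups overlapped. The share of *Bcl2* in this wider sum was 9.73%, 10.8% and 11.9% in WT and 12.5%, 16.1% and 16.4% in Bob1KO. The 2 effectors summed to 233 ± 24.4 FPKM in WT and 210 ± 12.7 FPKM in Bob1KO, nearly all of it *Bax*. The 5 BH3-only genes summed to 98.1 ± 12.6 FPKM in WT and 97.8 ± 8.90 FPKM in Bob1KO. Higher *Bbc3* and lower *Bid* stood side by side in this sum, which hardly differed between the groups.

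The ratio of the anti-apoptotic to the BH3-only sum was 1.73, 2.28 and 1.86 in WT and 2.19, 2.08 and 2.36 in Bob1KO, and the groups overlapped. *Bcl2* over *Bid*, both of which differed in opposite directions, was 1.61, 1.89 and 2.01 in WT and 2.87, 3.50 and 3.84 in Bob1KO. *Bcl2* over *Bbc3* was 2.95, 3.43 and 3.85 in WT and 2.65, 3.29 and 3.96 in Bob1KO. This ratio overlapped between the groups, as both of its genes lay higher in Bob1KO. *Bcl2* over *Bcl2l11* had a mean of 19.3 ± 5.03 in WT and 18.1 ± 1.76 in Bob1KO (SD, n = 3).

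**Figure D4:**
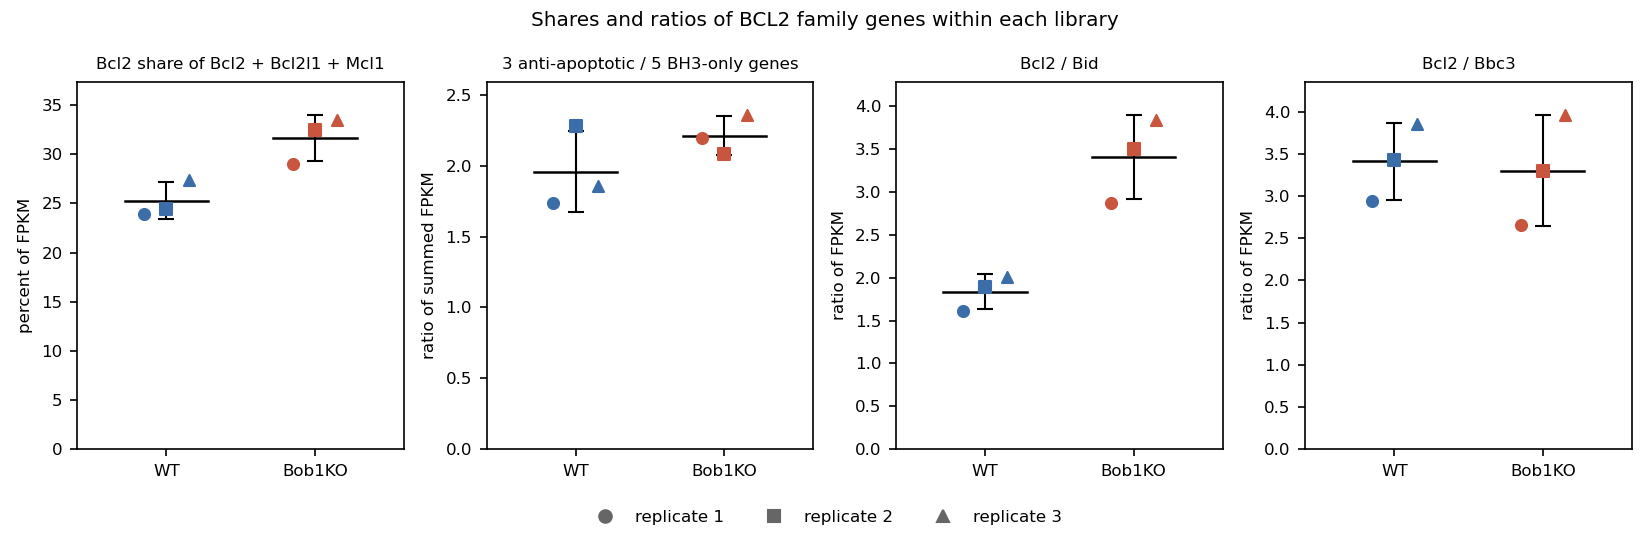
Share of *Bcl2* among the 3 anti-apoptotic genes in percent, and ratios of FPKM within a library (y axes, from 0), in WT and Bob1KO (x axes). Points are libraries and lines and bars are the mean and SD. The *Bcl2* share and *Bcl2* over *Bid* are higher in all Bob1KO libraries, whereas *Bcl2* over *Bbc3* and the ratio of the sums overlap.

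The remaining genes of the family were 16 in number, of which 9 passed the minimum of 1 FPKM. In limma 0 of these 9 passed the adjusted P of 0.05, beside 0.0198% of all genes tested, with adjusted P values from 0.947 to 0.999. An unadjusted P under 0.05 was found for 0 of the 9, beside 5.38% of all genes. The fold changes of 3 were above 0 and of 6 below 0, and the median was -0.08. The most abundant was *Bcl2a1b*, a copy of the anti-apoptotic A1 gene that is induced by NF-kB in activated lymphocytes and myeloid cells. *Bcl2a1b* had 217, 180 and 189 FPKM in WT and 202, 175 and 176 FPKM in Bob1KO, and the log2 fold change was -0.08 (standard error 0.120). In FPKM this gene lay above *Mcl1* in 6 of 6 libraries. *Bcl2a1d* had 60.0, 64.5 and 55.1 FPKM in WT and 62.6, 55.1 and 55.6 FPKM in Bob1KO. The A1 copies on chromosome 9 are nearly identical and can share reads, so the split between *Bcl2a1b* and *Bcl2a1d* is uncertain, and *Bcl2a1a* and *Bcl2a1c* were under the minimum.

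The groups did not overlap for 1 of the 9 other family genes tested, beside 10.7% of all genes in either direction (4.86% lower in Bob1KO). This was *Bnip3*, an atypical BH3 gene of mitophagy, at 6.76, 5.93 and 6.07 FPKM in WT and 5.22, 4.34 and 5.49 FPKM in Bob1KO. Its log2 fold change was -0.27 (standard error 0.152). Its relative *Bnip3l* lay at -0.38 on the log2 scale (standard error 0.269), which was -0.04 without both replicate 2 libraries. In WT replicate 2 the row of *Bnip3l* began at 66971095 on chromosome 14, beyond the gene that begins at 66985238, and held 111 FPKM against 51.8 to 55.4 FPKM in the other 5 libraries. The authors' group values for *Bnip3l*, 99.4 FPKM in WT and 96.0 FPKM in Bob1KO, lay nearer to the former. Which rows are complete was not tested. *Bik*, *Bcl2l12*, *Bcl2l13*, *Bcl2l14* and *Bcl2l15* had log2 fold changes of 0.02, -0.12, -0.15, 0.01 and 0.21, each smaller than its standard error. *Bcl2l2*, anti-apoptotic Bcl-w, was too low to be tested, and its values of 0.160, 0.184 and 0.218 FPKM in WT and 0.251, 0.383 and 0.447 FPKM in Bob1KO did not overlap. *Bmf*, *Bok* and *Bcl2l10* were likewise under 1 FPKM on average, and *Hrk* was listed at 0 in all 6 libraries.

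Genes that act before and after the BCL2 family were taken from 5 lists of the death pathway, chosen with results of these data known. In limma 0 genes of these lists passed the adjusted P of 0.05, beside 0.0198% of all genes tested. The apoptosome, caspases and mitochondrial death factors gave 6 positive and 7 negative log2 fold changes of 13 tested, with a median of -0.02, and 2 of the 13, both higher in Bob1KO, had an unadjusted P under 0.05, beside 3.17% of all genes. These were *Cycs*, cytochrome c, with 33.4, 37.9 and 45.2 FPKM in WT and 122, 60.6 and 51.1 FPKM in Bob1KO, and *Apaf1*, the scaffold of the apoptosome, with 4.73, 5.38 and 4.42 FPKM in WT and 6.16, 18.4 and 7.40 FPKM in Bob1KO. The groups did not overlap for either gene, but 1 Bob1KO library stood far above the others in each, replicate 1 for *Cycs* and replicate 2 for *Apaf1*. The authors' group values from their common assembly, 48.1 FPKM in WT and 40.9 FPKM in Bob1KO for *Cycs*, went in the opposite direction, and *Cycs* has processed copies in the genome that can share its reads. Without the high library the log2 fold change was 0.52 for *Cycs* and 0.41 for *Apaf1*, beside 0.89 and 0.85 with all libraries.

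The p53 list, which holds *Bbc3*, *Pmaip1* and *Bax* themselves, had 7 positive and 6 negative of 13 tested, with a median of 0.05. With *Bbc3*, which was picked with its values known, 2 of the 13 had an unadjusted P under 0.05 and were higher, beside 3.17% of all genes, and the other was *Phlda3*, a p53 target that restrains Akt, at 4.92, 3.01 and 3.14 FPKM in WT and 7.44, 5.94 and 6.22 FPKM in Bob1KO (log2 fold change 0.70, standard error 0.204, adjusted P = 0.793). *Sesn2*, another p53 target, lay in the opposite direction at -0.26. The list of binding partners and turnover of BCL2 proteins had 5 positive and 9 negative of 14, with a median of -0.07. An unadjusted P under 0.05 was found for 2 of the 14, both higher, beside 3.17% of all genes, namely *Ppp3ca*, a calcineurin catalytic subunit whose phosphatase acts on Bad (log2 fold change 0.54, standard error 0.175), and *Dynll2*, the dynein light chain that tethers Bmf (log2 fold change 0.65, standard error 0.261). The groups overlapped for *Dynll2*, and the authors' group values, 35.9 FPKM in WT and 32.9 FPKM in Bob1KO, went in the opposite direction.

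The inhibitors of apoptosis had 3 positive and 2 negative of 5 tested, with a median of 0.11, and 0 with an unadjusted P under 0.05 in limma, beside 5.38% of all genes. *Xiap*, a direct caspase inhibitor, lay at 0.32 on the log2 scale (standard error 0.20) and *Birc5*, survivin, which is also expressed in mitosis, lay at -0.64 (standard error 0.341). Without WT replicate 3 these were 0.20 for *Xiap* and -0.31 for *Birc5*, and *Birc5* was -0.39 without Bob1KO replicate 2. The death receptor list, through which *Bid* is engaged, had 3 positive and 3 negative of 6 tested, with a median of -0.04. Of these 6, 0 had an unadjusted P under 0.05 in limma, beside 5.38% of all genes. *Fas*, the receptor, had -0.16 (standard error 0.138), with -0.06 without WT replicate 1 and -0.29 without WT replicate 2, and *Ripk3*, a kinase of necroptosis, had -0.15 (standard error 0.101). The median over all genes tested was -0.00326.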

How the data were processed

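Reads of 6 libraries made with a SMART-Seq v4 kit from 0.7 ng of RNA each were, per the submitters' processing notes and methods, trimmed with cutadapt 1.2.1, aligned to GRCm38 with TopHat2 2.0.13 and assembled with Cufflinks 2.2.1, with which the authors gave an FPKM per row and library. The annotation version is not stated in the sources read here. Rows named by the assembly hold 94.7% to 96.44% of the FPKM of a library. They were assigned to genes by position (at least 0.5 of the joint length shared, or 0.95 of a gene covered) and summed per gene, and 5 genes with a failed status were left out. Overlapping genes cannot be told apart in this way. The authors' table of both groups also holds the authors' fold changes, test statistics, P values and q values, which were not used, and of it only the deposited group FPKM served as an alternative.

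Genes whose FPKM averaged 1 or more, 10119 in all, were fitted with limma 3.58.1 (R 4.3.3, trend, two-sided) on log2(FPKM + 1), which understates changes of low genes, with Benjamini-Hochberg adjustment. Python 3.11.15 and pandas 2.3.3 made the tables. The files hold no counts, and the depth comes from the deposited FPKM bounds. An exact permutation test of 3 against 3 libraries cannot go below 0.1. In simulated data on the 10119 genes of this comparison, 100 genes were changed 2-fold and 100 were changed 4-fold. From these limma recovered 41% of 2-fold and 87% of 4-fold changes, with 4 false calls. Same-numbered WT and Bob1KO libraries deviated together (correlations over genes of 0.136, 0.144 and 0.128, others from -0.106 to -0.0368), so the numbers were taken to pair the libraries, which the main fit, without a block, does not use. The labels do not say that libraries came from separate animals.

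Genes named are the 10 genes, the other family genes tested, the 2 smallest unadjusted P of each pathway list, the 2 genes of highest mean FPKM in each list of cell type markers, *S100a8* and *Pou2af1*. *Cd8a*, *Cd8b1*, *Ncr1*, *Klrd1*, *Gzma*, *Gzmb*, *Ddx3y*, *Xist* and the family genes under 1 FPKM were named after their values were seen. The 10 genes and all lists were chosen with earlier results of these data known. As alternatives, the pseudocount, the filter, the scaling, the variance model and the matching were changed, a replicate block was fitted, libraries were left out and, as a choice made after seeing the data, rows inside a gene's span were added.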

Additional observations from a re-analysis of the deposited data

How the results depend on the processing

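In limma 0 of the 10 genes, of the other family genes and of the death pathway genes were called under each alternative run, and *Pou2af1* was called under each. The fit with a replicate block, in which libraries are paired by number, also called 0 of the 10 genes and changed no call among these genes. In this balanced design the block cannot change a log2 fold change, and that of *Pou2af1* stayed at -4.65. Over all genes 2 were called, 1 with the block, and between 1 and 7 under the alternatives, 7 without WT replicate 1. *Bcl2*, *Bbc3*, *Bid*, *Bcl2l11*, *Mcl1* and *Bax* kept their direction under every alternative that gave a value, *Bcl2* between 0.41 and 0.61, *Bbc3* between 0.44 and 0.61 and *Bid* between -0.42 and -0.31, whereas *Bcl2l1*, *Bad* and *Pmaip1* did not. *Bak1* was above 0 in the 4 alternatives that included it, the authors' group FPKM and the fits without WT replicate 1, WT replicate 3 or Bob1KO replicate 3. Leaving out these low libraries brought its mean past the minimum, so its direction there carries no weight. *Bcl2l11* was at 0.19 with rows inside its span added. Part of the agreement in direction was fixed in advance. The filter, the variance model and the replicate block cannot change the fold change of a gene that is fitted. Leaving out libraries cannot turn the sign where the groups do not overlap, as for *Bcl2*, *Bbc3*, *Bid* and *Bcl2l11*.

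Log2 fold changes turned in sign for *Bcl2a1d* (0.0371 without both replicate 2 libraries, -0.11 to 0.00434 with each library left out in turn), *Bik* (-0.0580 with quantile normalization, -0.36 without both replicate 2 libraries, -0.19 to 0.23 with each left out), *Bcl2l14* (-0.0108 with a pseudocount of 0.1, -0.0334 with quantile normalization, -0.11 with rows inside the span added, -0.18 to 0.21 with each left out), *Bcl2l12* (-0.26 to 0.0280 with each left out) and *Bcl2l13* (-0.44 to 0.11 with each left out). *Bcl2l13* was also at 0.17 in the authors' group FPKM, beside -0.15 in the main fit. The cause of these turns in sign was not tested. With 3 libraries per group, and 2-fold changes only partly recovered in simulated data, the smaller differences seen here can pass undetected. Changes under 2-fold were not simulated. More genes were changed in the simulation than were called here, which makes the adjusted threshold easier to pass.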
